A study of Mus musculus with 25 samples.

Results

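The step from 12 to 36 hours after partial hepatectomy (PHx) was examined in mouse liver by comparing 5 arrays of livers taken at 36 hours with 5 arrays of livers taken at 12 hours, 10 of the 25 arrays of the series. Each array held the RNA of 1 liver, and all mice were male Balb/c of 8 weeks. The left lateral and median lobes had been removed, and no genotype, drug or transgene separated the groups. The 2 times lie 24 hours apart, so that livers of both groups had been removed at the same hour of the day if surgery was done at the same hour, a detail that the sources used here leave out. Sham operated mice, 5 of them and taken at 4 hours after surgery per the labels, were used to place the levels at 12 and at 36 hours. All 25 arrays, sham included, entered the estimate of the spread behind the tests. The probes report mRNAs and putative long noncoding RNAs (lncRNAs), and values are given as log2 of the deposited intensity, so that a difference of 1 is a 2-fold difference.

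Hepatocytes of the adult liver rest outside the cell cycle. After the loss of liver mass they pass through a priming phase and G1 before they copy their DNA and divide, and the other liver cells follow. Origins of replication are loaded with the Mcm2 to Mcm7 helicase in G1 and fired in S phase by the Cdc7 kinase and the cyclin E and cyclin A kinases. Transcription of the genes for this machinery is held down by E2F proteins bound to Rb family members in resting cells and is turned on by E2f1 and its relatives. Genes for mitosis are turned on later, and many of them carry a cell cycle homology region (CHR) that is bound by the DREAM and MuvB complexes.

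Of 35979 probes tested, 5197 were higher at 36 than at 12 hours (14.4%) and 5410 were lower (15.0%), by limma with an adjusted p under 0.05. Rises reached 2-fold or more for 1250 probes and 4-fold or more for 344, whereas falls did so for 663 and 103 probes. The median difference over all probes was -0.01, and the middle 90% of probes lay between -0.62 and 0.81. Arrays of the 12 hour group correlated with each other at 0.981 to 0.996 and those of the 36 hour group at 0.988 to 0.996, whereas pairs across the groups lay between 0.953 and 0.980. Gene names were at hand for only some of these probes. Of the 1250 probes that rose at least 2-fold, 283 were named mRNAs and 10 were putative lncRNAs in the rows of S1 Table used here, whereas of the 663 that fell at least 2-fold only 13 were named mRNAs. Among the 100 probes with the largest falls, 1 was a named mRNA, so the falls described below are a thin sample of those on the array. The listed transcripts had all been picked by the study because they changed on these very arrays, so the counts of named genes that follow are not independent evidence of a change. The study grouped transcripts into clusters by their pattern over time. The rows used here hold its clusters 1 to 3 and only part of cluster 4, and its later clusters are missing from them. In cluster 1, 393 of 431 probes were higher at 36 than at 12 hours and 4 were lower. In the part of cluster 4 at hand, 261 of 285 were higher and 0 lower. Cluster 2 had 167 of 562 higher and 22 lower, and cluster 3 had 23 of 720 higher and 231 lower.

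Sequence around the start of the genes is shown first, for the 2 large gene groups that rose, replication and mitosis. Promoters of RefSeq (GRCm38.p6, a C57BL/6J genome, 250 bases before the start to 50 after it) were searched on both strands. The E2F search took TTCCCGC as its first form, with TTGGCGC as another, and also accepted TTCGCGC in place of these, or else TTGCCGC as the last form. The CHR search took TTTGAA and, as its other form, TTCGAA alone. E2F letters on opposite strands can overlap each other. The windows below hold the match nearest to the start, in capitals, for replication and checkpoint genes with E2F letters.
Mcm3, chr1:20820276-20820305, minus strand: taaacttccgtgGCGGGAAaacttgggaag
Mcm5, chr8:75109348-75109377, plus strand: ccaagaactTTCGCGCCAAaacgtccagcc
Mcm6, chr1:128359664-128359693, minus strand: agccggaggcgcGCGCGAAgtggcagcgcg
Mcm7, chr5:138171849-138171878, minus strand: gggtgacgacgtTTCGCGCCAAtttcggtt
Cdt1, chr8:122568021-122568050, plus strand: tgcgcggaatccGCGGGAActacctttttg
Pole2, chr12:69228163-69228192, minus strand: gcgtcggcggtgGCGCCAAatcgcgaacat
Rrm1, chr7:102441616-102441645, plus strand: caggagaactcgTTCCCGCcaggtccgctt
Rad51ap1, chr6:126939558-126939587, minus strand: gtctggttttcgGCGGGAAttgaaaccgcc

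The same kind of window is given for mitosis genes with CHR letters, together with Mcm2, the only helicase subunit matched here in which CHR but no E2F letters were found.
Cdk1, chr10:69352910-69352939, minus strand: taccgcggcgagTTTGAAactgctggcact
Ccnb2, chr9:70421533-70421562, minus strand: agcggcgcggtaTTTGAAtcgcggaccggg
Bub1, chr2:127831828-127831857, minus strand: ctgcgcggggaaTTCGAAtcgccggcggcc
Ttk, chr9:83834684-83834713, plus strand: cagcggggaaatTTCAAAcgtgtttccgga
Cdca5, chr19:6085076-6085105, plus strand: gcaaTTTGAAcgTTTGAAgcagcaaagttc
Cenpa, chr5:30666890-30666919, plus strand: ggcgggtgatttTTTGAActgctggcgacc
Mcm2, chr6:88898833-88898862, minus strand: agggctcagcctTTTGAAagctgtgggcgg

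E2F letters were present in the promoters of 8 of 12 origin licensing and firing genes (66.7%), 11 of 17 genes of DNA synthesis at the fork (64.7%) and 15 of 22 genes of repair and the replication checkpoint (68.2%), but in 5 of 34 mitosis genes (14.7%). Over all 27025 promoters of the table the share was 9.69%, and over the 17492 of protein-coding genes 12.2%. CHR letters were present in 24 of 34 mitosis genes (70.6%), 2 of 17 fork genes (11.8%), 2 of 22 repair genes (9.09%) and 5 of 12 licensing genes (41.7%), against 19.4% of all promoters. The other replication lists stood closer to each other in both searches, with E2F letters in 6 and CHR letters in 5 of 17 chromatin genes (35.3% and 29.4%), and each in 2 of 5 genes of nucleotide supply. G1 to S genes held E2F letters in 4 of 9 promoters (44.4%) and CHR letters in 1 of 9 (11.1%). Named genes that rose at least 2-fold, a set that includes members of these lists, held E2F letters in 35.5% and CHR letters in 33.6% of 211 promoters. Named genes that fell from 12 to 36 hours held E2F letters in 11.7% and CHR letters in 12.5% of 128 promoters. Many matches lay in the 50 bases after the start: counted in the 250 bases before the start alone, CHR letters were present in 32.4% of the mitosis promoters and E2F letters in 29.4% of the fork promoters. A match is a run of letters and not a shown site of binding.

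Genes of DNA replication, chromatin assembly and repair rose together. All 85 genes in 5 lists of this machinery were higher at 36 than at 12 hours, with a median difference of 1.71. Over all probes 14.4% were higher, but the lists held only genes named in the rows used here. Most probes of clusters 1 and 4 in those rows were higher, so all probes are not a matched comparison for the lists. In 81 of the 85 every 36 hour array lay above every 12 hour array, which held for 10.1% of all probes in this direction and for 9.27% in the other.

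**Figure D1:**
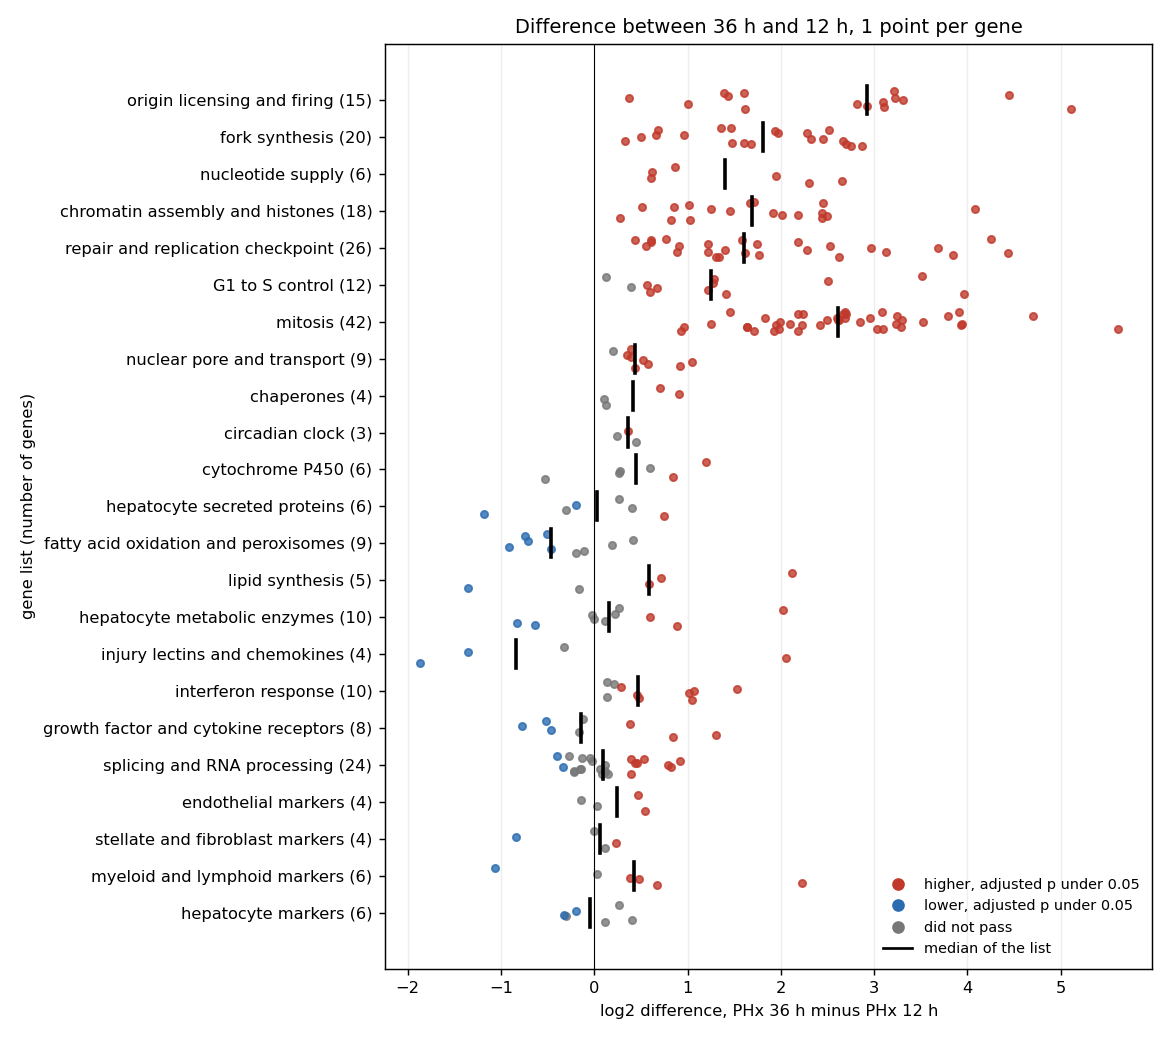
Difference of mean log2 intensity between 36 and 12 hours after PHx (x axis) for the genes of 23 lists (y axis, number of genes in brackets), 1 point per gene; black bars are list medians and colours give the call by limma. Replication, repair and mitosis lists lie wholly to the right, with medians of 1.40 to 2.92, while hepatocyte lists scatter around 0.

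The 6 subunits of the Mcm2-7 helicase, which unwinds DNA ahead of the fork, all rose, by 2.82 to 5.11. Log2 intensity of Mcm6 was 6.39, 6.73, 6.03, 6.07 and 5.95 on the 12 hour arrays and 10.91, 12.02, 11.67, 11.35 and 10.75 on the 36 hour arrays. No 36 hour mouse came near the 12 hour range, and mice 2 and 3 were the highest. The difference of 5.11 (standard error 0.21, adjusted p = 4.33e-15 from limma), or 34.5-fold, was the second largest among the named genes. Mcm5 read 7.49, 7.37, 7.08, 7.31 and 7.30 at 12 hours and 11.39, 12.25, 12.15, 11.54 and 11.51 at 36 hours. It rose by 4.45 (standard error 0.17, adjusted p = 8.25e-16 from limma), with mice 2 and 3 again at the top. For Mcm2, values were 8.04, 7.92, 7.87, 7.86 and 7.96 at 12 hours and 11.17, 11.33, 11.33, 10.86 and 11.03 at 36 hours. Its rise of 3.21 came on top of a level at 12 hours that was already 0.64 above sham (adjusted p = 2.20e-04 from limma). Mcm3 rose by 2.92, Mcm4 by 3.31 and Mcm7 by 2.82, with no overlap between the groups for any of them.

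The other origin factors rose as well, so that 15 of 15 licensing and firing genes were higher at 36 hours (median 2.92, all with no overlap between the groups). Cdt1, which loads the helicase together with Cdc6, rose by 3.22, and Cdc6 by 1.62. Gins1 and Gins2, parts of the GINS complex that completes the active helicase, rose by 3.11 and 3.09. Dbf4, the partner that activates the Cdc7 kinase, rose by 1.39. Orc5, a subunit of the complex that marks origins, moved least of the list with 0.37. Gins1 stood out before this step, as it was 0.99 below sham at 12 hours (adjusted p = 1.60e-07 from limma), the only member of the list that was lower than in sham livers then.

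**Figure D2:**
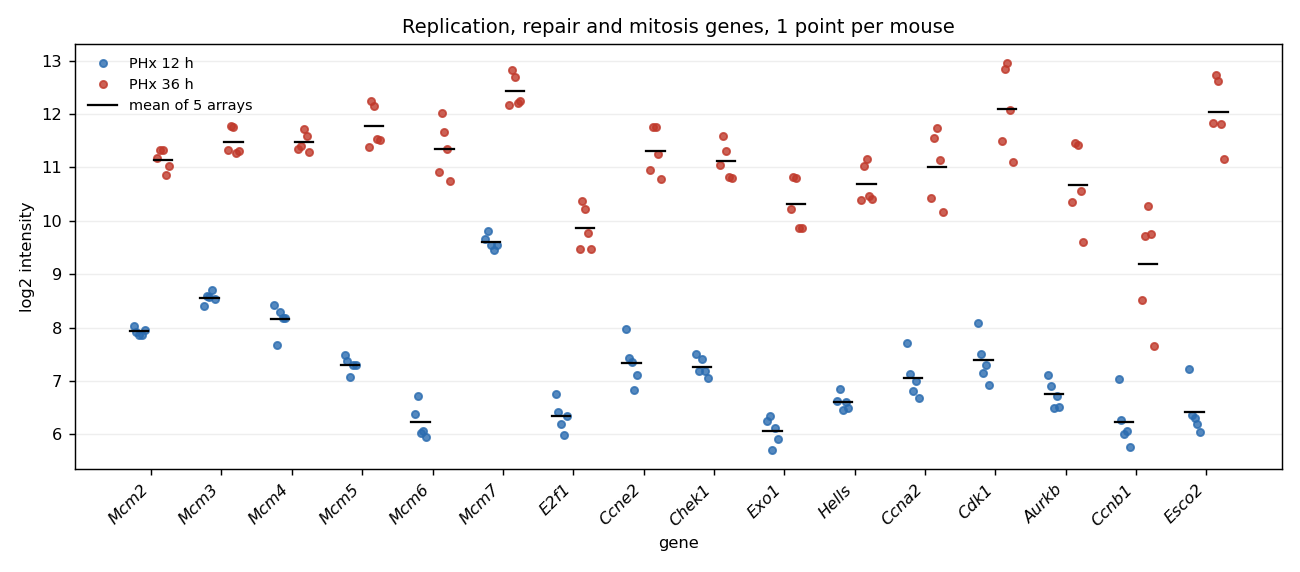
Log2 intensity (y axis) of 16 genes of replication, repair and mitosis (x axis) in the 5 mice at 12 hours (blue) and the 5 mice at 36 hours (red) after PHx, with the mean of each group as a black bar. The groups do not overlap for any of the 16 genes, and the 36 hour points of Cdk1, Ccna2, Aurkb and Ccnb1 are spread more widely than those of Mcm2 to Mcm4.

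All 20 genes of synthesis at the fork were higher at 36 hours, with a median of 1.81 and a range from 0.33 for the nuclease and helicase Dna2, whose call was lost without replicate 4 of the 12 hour group or replicate 2 of the 36 hour group, to 2.87 for Pole2, a subunit of the leading strand polymerase. Pcna, the sliding clamp that holds the polymerases on DNA, read 12.42, 12.84, 12.68, 13.17 and 12.66 at 12 hours and 14.95, 15.49, 15.47, 14.76 and 14.71 at 36 hours. Its rise of 2.32 (standard error 0.13, adjusted p = 1.63e-12 from limma) left the groups clearly apart. Lig1, which seals Okazaki fragments, rose by 2.70, and Pola1, the catalytic subunit of the priming polymerase, by 2.28. The delta polymerase subunits had smaller rises. Pold1 went from 7.63 ± 0.12 (SD, n = 5) to 9.11 ± 0.28 (SD, n = 5), a rise of 1.48, and Pold3 from 9.24 ± 0.20 to 9.74 ± 0.22, a rise of 0.50 (adjusted p = 7.42e-04 from limma).

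All 6 genes of nucleotide supply rose (median 1.40), led by Rrm1, the large subunit of ribonucleotide reductase. It averaged 9.90 ± 0.09 (SD, n = 5) at 12 hours and read 12.43, 12.94, 12.81, 12.44 and 12.19 at 36 hours. The 5 mice at 36 hours all lay at least 2 log2 units above the 12 hour mice, and the difference was 2.66 (standard error 0.11, adjusted p = 1.08e-14 from limma). Dck, the salvage kinase for deoxycytidine, rose by 2.30 and Tyms, which makes thymidylate, by 1.95. The purine and pyrimidine precursor gene Prps2 rose by 0.86 from a level at 12 hours that was 0.34 below sham.

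Chromatin genes followed, with 18 of 18 higher at 36 hours (median 1.69). Hells, a remodelling helicase needed for DNA methylation, read 6.62, 6.86, 6.46, 6.61 and 6.49 at 12 hours and 10.39, 11.02, 11.15, 10.46 and 10.41 at 36 hours. Its difference of 4.08 (standard error 0.16) was the largest of the list. The histone chaperones Chaf1a and Asf1b, which place new nucleosomes behind the fork, rose by 2.45 and 2.18, and the H3 lysine 9 methyltransferase Suv39h1 by 1.92. The histone gene H3c8 rose by 1.03 (standard error 0.22, adjusted p = 5.36e-04 from limma); histone genes are near copies of each other, so its probe may also read other H3 genes, and replication histone mRNAs lack a poly(A) tail.

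Repair and replication checkpoint genes gave 26 of 26 higher at 36 hours (median 1.60), all with no overlap. Chek1, the kinase that slows forks under stress, read 7.50, 7.18, 7.42, 7.19 and 7.06 at 12 hours and 11.05, 11.59, 11.31, 10.82 and 10.80 at 36 hours, a rise of 3.85 (standard error 0.14). Exo1, an exonuclease of mismatch repair, rose by 4.25 and Rad51ap1, a recombination factor, by 3.68. At 12 hours, 8 of the 26 genes were as dim as the lowest 30% of probes, under a log2 intensity of 6.09, among them Exo1 and Rad51ap1, and the array may understate how far such genes rose. Among the smaller rises were those of the base excision genes Xrcc1 (0.44) and Mbd4 (0.61) and of the mismatch gene Pms2 (0.77).

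Part of this machinery differed from the sham level at 12 hours. Sham livers had been taken at 4 hours, so every difference from sham given here also spans a difference in time since surgery, and possibly in the hour of the day, which cannot be told apart from PHx. Of the 85 genes, 26 were higher at 12 hours than in sham livers, where 16.3% of all probes were higher, and 5 were lower, where 15.1% were lower. These were spread over several lists: 10 of 20 fork genes, 5 of 15 licensing genes and 6 of 26 repair genes were higher than sham at 12 hours. Rpa2, a subunit of the single strand binding protein, was 1.13 above sham at 12 hours and 3.10 above at 36 hours. Pold1 stood 0.92 above sham at 12 hours and 2.40 above at 36 hours, Pold3 0.84 and then 1.34, and the mismatch gene Msh6 0.72 and then 2.50. Other genes of the same lists were at their sham level at 12 hours, with 0.03 for Pola1, -0.04 for Chek1, -0.06 for Hells and 0.12 for Mcm5, none of which passed the test, and differed from sham by 2.32, 3.80, 4.02 and 4.57 at 36 hours. The comparisons with sham share the 12 and 36 hour arrays with the comparison of these times, so their values are given side by side and not related to each other.

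**Figure D3:**
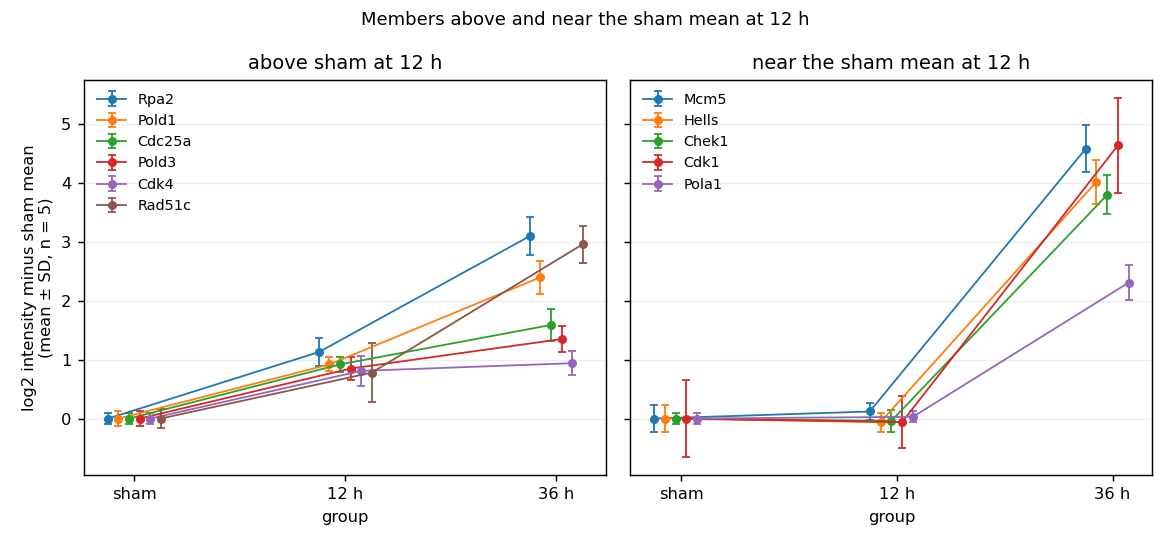
Log2 intensity relative to the sham mean (y axis, mean ± SD, n = 5) in sham livers and at 12 and 36 hours after PHx (x axis), for 6 genes that were above sham at 12 hours (left) and 5 that were near the sham mean then (right), chosen after their values were seen. Cdk4 is nearly level from 12 to 36 hours, whereas Mcm5 and Cdk1 are at the sham mean at 12 hours and more than 4 log2 units above it at 36 hours.

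Among 12 genes that control the passage from G1 to S, 10 were higher at 36 hours and none were lower (median 1.25). Of all probes 14.4% were higher and 15.0% lower. E2f1, the transcription factor that turns on replication genes, read 6.76, 6.43, 6.20, 5.99 and 6.35 at 12 hours and 9.47, 10.37, 10.22, 9.78 and 9.47 at 36 hours. It rose by 3.51 (standard error 0.16, adjusted p = 4.28e-14 from limma), or 11.4-fold, from a level at 12 hours that was 0.49 below sham (adjusted p = 0.0253 from limma). Ccne2, cyclin E2, read 7.98, 7.43, 7.36, 6.84 and 7.11 at 12 hours and 10.96, 11.75, 11.76, 11.26 and 10.78 at 36 hours, a rise of 3.96. Its kinase Cdk2 rose by 1.27 from 0.77 above sham, and the Rb relative Rbl1 by 1.28 from 0.77 above sham. Dtl, which marks Cdt1 for destruction at replicating DNA, rose by 2.51.

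The test was not passed by Cdk4 and Cdkn1b. Cdk4, the kinase of the D cyclins, read 12.57, 13.22, 12.72, 12.97 and 12.80 at 12 hours and 12.78, 13.18, 13.21, 12.87 and 12.86 at 36 hours. The groups overlapped and the difference was 0.13, but Cdk4 was already 0.81 above sham at 12 hours. Cdkn1b, which encodes the kinase inhibitor p27, was 0.39 higher at 36 than at 12 hours (adjusted p = 0.055 from limma) and remained 0.58 below sham. It passed without replicate 1 or 3 of the 12 hour group or replicate 5 of the 36 hour group.

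Mitosis genes formed the largest group. All 42 were higher at 36 hours (median 2.61), against 14.4% of all probes. In 40 of them the groups did not overlap, against 10.1% of all probes in this direction. At 12 hours none had been higher than sham and 2 were lower, against 16.3% and 15.1% of all probes. Cdk1, the kinase that drives entry into mitosis, read 8.08, 7.50, 7.16, 7.30 and 6.92 at 12 hours and 11.49, 12.84, 12.95, 12.07 and 11.10 at 36 hours. It rose by 4.70 (standard error 0.31, adjusted p = 1.98e-11 from limma), or 26.0-fold, with mouse 5 the lowest and mouse 3 the highest at 36 hours. Its cyclin Ccnb1 read 7.03, 6.27, 6.01, 6.07 and 5.77 at 12 hours and 8.52, 9.71, 10.28, 9.76 and 7.65 at 36 hours. The difference of 2.96 (standard error 0.37, adjusted p = 6.95e-07 from limma) came with a span of more than 2 log2 units between the mice at 36 hours. Ccna2, cyclin A2, which serves S phase as well as mitosis, rose by 3.94, and Aurkb, the kinase of the chromosomal passenger complex, by 3.93. Esco2, which acetylates cohesin so that sister chromatids hold together, had the largest rise of all named genes, 5.61 (standard error 0.27, adjusted p = 8.37e-14 from limma), with values of 7.22, 6.37, 6.30, 6.20 and 6.05 at 12 hours and 11.84, 12.74, 12.62, 11.82 and 11.16 at 36 hours. A second probe for Esco2 gave 4.14. The kinetochore genes Cenph and Nuf2 rose by 4.28 and 3.79 and Shcbp1, a protein of the midbody, by 4.74, and Cenph and Nuf2 were at the level of the dimmest 30% of probes at 12 hours.

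The 36 hour mice were spread more widely in mitosis genes than in replication genes. The mean of the 42 mitosis genes was 8.93, 9.80, 10.01, 9.36 and 8.44 in mice 1 to 5 at 36 hours, a range of 1.57 and an SD of 0.64, against a range of 0.52 and an SD of 0.23 at 12 hours. For the 15 licensing genes it was 10.10, 10.72, 10.67, 10.21 and 10.02 at 36 hours, with a range of 0.70, and 7.67 to 7.86 at 12 hours. Mice 2 and 3 were the 2 highest of the 36 hour group for licensing, fork, nucleotide, chromatin, repair, G1 to S and mitosis genes, and mouse 5 was the lowest for all of these but the G1 to S list, in which mouse 1 read 9.75 and mouse 5 read 9.76. The lists were read on the same 5 arrays, so their order in the mice is a single observation. Median intensities of these arrays lay between 98.9 and 99.4, and the mean of 6 hepatocyte markers was 13.11, 13.10, 13.26, 13.38 and 13.29 in mice 1 to 5. At 12 hours mouse 1 had the highest mitosis mean, 6.99, and the highest value for Cdk1, Ccna2, Aurkb, Ccnb1 and Esco2. In the livers taken at 72 hours the mitosis mean lay within 9.17 to 9.44, a range of 0.27, while the licensing mean had come down to 8.86 to 9.18. Whether the mice at 36 hours stood at different points of the cycle was not tested.

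**Figure D4:**
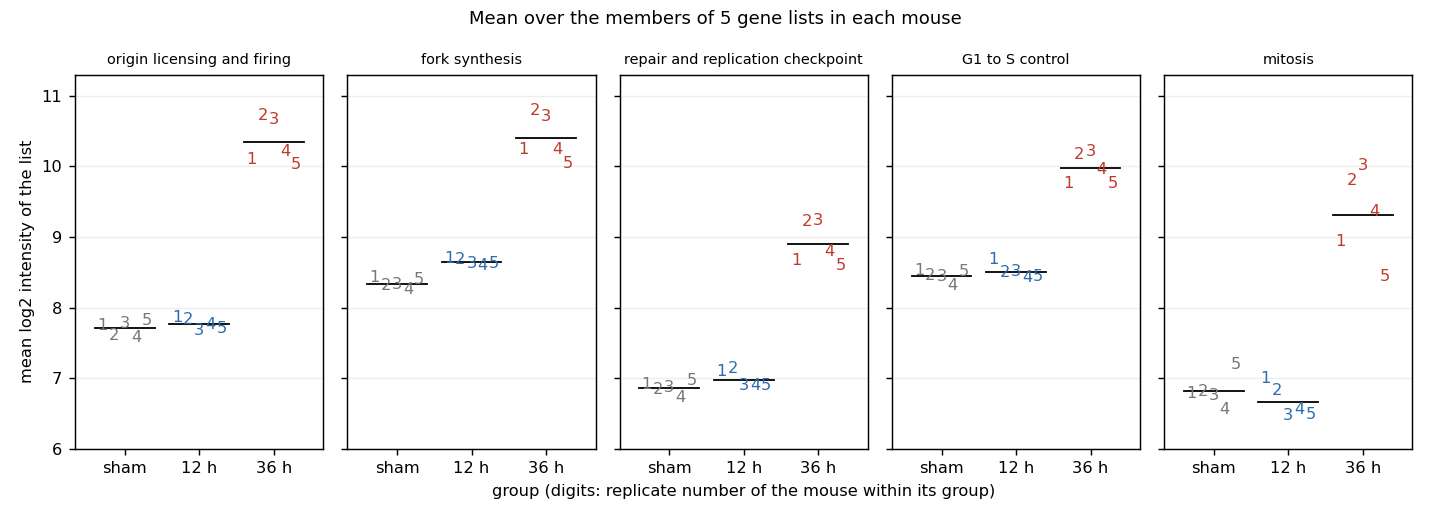
Mean log2 intensity over the members of 5 gene lists (y axis) in each mouse of the sham, 12 hour and 36 hour groups (x axis). Digits are the number of the mouse within its group, and bars are group means. The same digit in different groups stands for different mice. The 36 hour mice span 8.44 to 10.01 for mitosis genes and 10.02 to 10.72 for licensing genes.

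Lists of other growth functions had smaller medians. Their counts stand against 14.4% of all probes higher and 15.0% lower. Among 9 genes of the nuclear pore and nuclear transport 8 were higher at 36 hours (median 0.44), with 1.05 for the pore scaffold subunit Nup107, 0.92 for Nup43 and 0.58 for the export receptor Xpo1. Of 4 chaperone genes, Hspa4l (0.91) and the Hsp90 co-chaperone Stip1 (0.70) rose, while the Hsp90 activator Ahsa1 differed by 0.13 and Hsp90ab1 by 0.10 without passing the test. Both had risen above sham by 12 hours, Ahsa1 by 0.53. Of 24 splicing and RNA processing genes 8 were higher and 2 lower (median 0.09), with rises of 0.92 for Lsm8 and 0.79 for Srsf7 and falls of 0.40 for Slu7 and 0.34 for Rbm5.

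Of 3 clock genes, read 24 hours apart, 1 was higher at 36 hours and none were lower, against 14.4% and 15.0% of all probes. Arntl (Bmal1), the activating arm of the clock, read 9.44, 8.73, 9.26, 9.42 and 9.41 at 12 hours and 9.61, 9.48, 9.95, 9.73 and 9.74 at 36 hours, a difference of 0.45 (standard error 0.19, adjusted p = 0.0839 from limma). Every 36 hour mouse lay above every 12 hour mouse, and the gene was called with the 10 arrays alone (adjusted p = 0.0339 from limma). Cry1, a repressor of the clock, read 10.56, 10.70, 10.43, 9.99 and 10.31 and then 10.76, 10.54, 10.49, 10.73 and 10.67, a difference of 0.24 (adjusted p = 0.319 from limma). The groups overlapped for Cry1. Arntl differed from the sham livers of 4 hours by 1.67 and Cry1 by 1.18 at 12 hours. Per3 was higher at 36 than at 12 hours by 0.36 (adjusted p = 0.023 from limma), but its 12 hour level of 5.74 was among the dimmest 30% of probes, and the call was lost without replicate 3 or 5 of the 12 hour group or without replicate 4 of the 36 hour group.

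Lists of liver function moved in part. For comparison, 15.1% of all probes were below sham at 12 hours. From 12 to 36 hours 14.4% of all probes rose and 15.0% fell. All 6 cytochrome P450 genes had been below sham at 12 hours (median -1.90), and from 12 to 36 hours only Cyp2c38 (1.20) and Cyp2c50 (0.84) rose, each ending below sham by 0.96 and 0.81. Cyp2b9 differed by 0.60 (adjusted p = 0.0611 from limma) and Cyp17a1, a steroid hydroxylase, by -0.53 (adjusted p = 0.0509 from limma). Cyp2b and Cyp2c genes have close paralogs, so that their probes may read more than 1 gene. Among 10 metabolic enzymes, 6 of which had been below sham at 12 hours, 3 rose and 2 fell. Gatm and Slc37a4 had not passed the test against sham then, with -0.26 and -0.35. Gatm, the first enzyme of creatine synthesis, rose by 2.02 (standard error 0.19, adjusted p = 8.14e-09 from limma), with 10.24, 9.80, 9.90, 8.58 and 9.56 at 12 hours and 11.95, 11.60, 11.40, 11.68 and 11.57 at 36 hours. Slc37a4, the glucose 6-phosphate transporter of the endoplasmic reticulum, fell by 0.83.

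Of the 9 genes of fatty acid oxidation and peroxisomes, 5 were lower and 0 higher at 36 hours (median -0.46), where 15.0% of all probes were lower. Without single arrays 4 to 7 were lower. Cpt1a, which admits long chain fatty acids to the mitochondrion, read 13.41, 13.57, 13.76, 13.25 and 13.56 at 12 hours and 12.76, 12.66, 12.40, 12.43 and 12.76 at 36 hours. It fell by 0.91 (standard error 0.12, adjusted p = 1.07e-06 from limma) with no overlap, after a level at 12 hours that was 0.70 below sham. Eci2, an isomerase for unsaturated fatty acids, fell by 0.71, the peroxisomal protease Lonp2 by 0.74 and the receptor Ppara, which drives many genes of this list, by 0.46 (adjusted p = 0.0359 from limma). The groups overlapped for Ppara, and its call was lost without replicate 2, 3 or 5 of the 12 hour group or replicate 2, 3 or 4 of the 36 hour group. The peroxisome factor Pex3 fell by 0.51, but a second probe for it gave -0.01 (adjusted p = 0.976 from limma). Desaturase genes moved in opposite directions: Scd2 rose by 2.12 and Scd3 fell by 1.35 (standard error 0.36, adjusted p = 5.26e-03 from limma), with close paralogs again in play.

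The largest falls of named genes were those of Rgs16, Cxcl1, Fbxo31, Scd3 and Reg3b. Rgs16, a brake on G protein signalling, read 9.71, 10.89, 10.52, 10.33 and 11.59 at 12 hours and 8.66, 7.38, 6.99, 7.33 and 8.40 at 36 hours. It fell by 2.86 (standard error 0.36, adjusted p = 7.47e-07 from limma), or 7.24-fold, on top of a level at 12 hours 2.47 below sham, so that the 36 hour livers differed from sham by -5.33. Fbxo31, a substrate receptor of a ubiquitin ligase that can target cyclin D1, read 12.25, 12.39, 12.02, 11.44 and 11.90 and then 10.51, 10.02, 10.11, 10.12 and 10.36. Its fall by 1.78 (standard error 0.13, adjusted p = 1.94e-10 from limma) left no overlap and also followed a drop below sham, of 1.36, at 12 hours. Chac1, which breaks down glutathione under stress, fell by 1.24 after 1.36. Another 3 genes fell after a 12 hour level near sham: Creb3, a transcription factor held in the endoplasmic reticulum membrane, by 1.16 after a difference of 0.07, the lipid droplet coat gene Plin3 by 1.08 after -0.19, and the ubiquitin ligase gene Trim39 by 1.04 after -0.10, none of these 3 passing the test against sham at 12 hours. Sec24d, a coat protein of vesicles that leave the endoplasmic reticulum, fell by 1.15, and Lbp, which binds bacterial lipopolysaccharide in plasma, by 1.18.

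**Figure D5:**
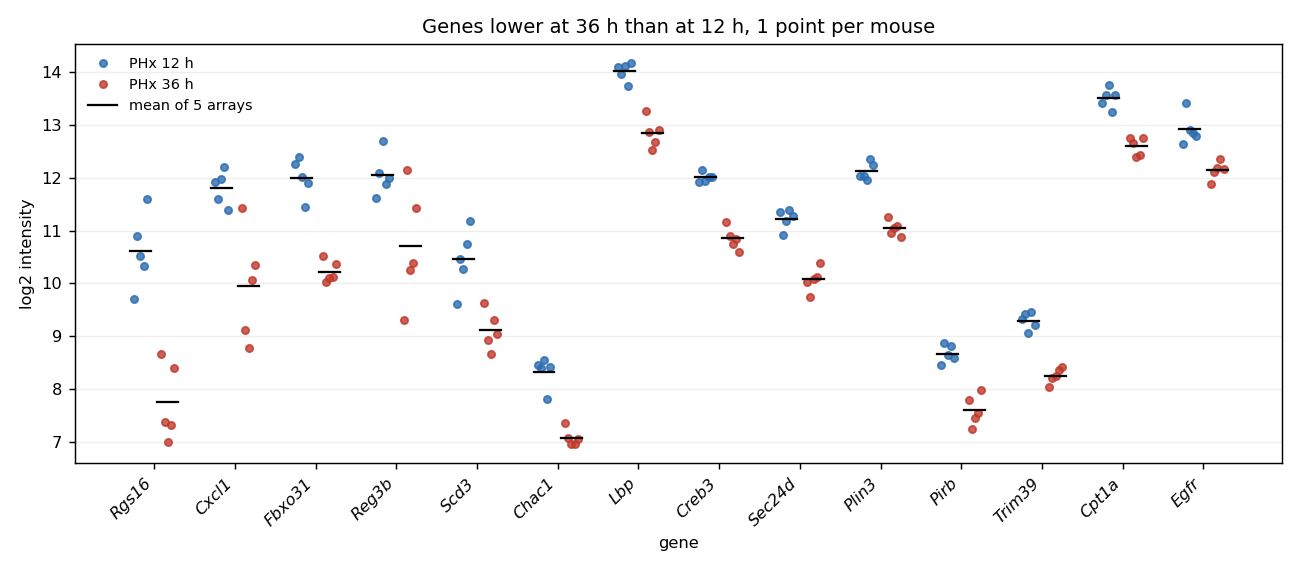
Log2 intensity (y axis) of 14 genes that were lower at 36 than at 12 hours (x axis) in each mouse, 12 hours in blue and 36 hours in red, with group means as black bars. The groups overlap for Cxcl1, Reg3b and Scd3, with 36 hour mice from 9.31 to 12.15 for Reg3b, and lie apart for the other 11 genes.

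Chemokines and injury lectins did not move as a group: of 4 genes 1 rose and 2 fell, against 14.4% and 15.0% of all probes. Cxcl1, which draws neutrophils, read 11.91, 11.59, 11.98, 12.20 and 11.39 at 12 hours and 11.42, 9.12, 8.78, 10.06 and 10.35 at 36 hours, a fall by 1.87 (standard error 0.38, adjusted p = 4.32e-04 from limma) in which mouse 1 stayed within the 12 hour range. Reg3b, an antimicrobial lectin, read 11.61, 12.08, 12.70, 11.89 and 12.00 and then 9.31, 12.15, 10.26, 10.39 and 11.42. It fell by 1.35 (standard error 0.37, adjusted p = 6.69e-03 from limma), but mouse 2 stayed within the 12 hour range, the methods' t-test with Benjamini-Hochberg adjustment did not call it, and it remained 4.19 above sham. Its relative Reg3g, which its probe may share signal with, differed by -0.32 (adjusted p = 0.477 from limma). Cxcl10, a chemokine induced by interferon, read 6.32, 6.16, 5.74, 6.38 and 6.18 and then 8.19, 8.47, 8.50, 7.92 and 8.01, a rise of 2.06 (standard error 0.12, adjusted p = 3.14e-12 from limma).

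Interferon response genes rose with Cxcl10, 7 of 10 being higher and none lower at 36 hours (median 0.47), where 14.4% of all probes were higher, after 7 of the 10 had been below sham at 12 hours, where 15.1% of all probes were lower. Il15, a cytokine for natural killer and T cells, rose by 1.53, Tnfsf10, the ligand TRAIL, by 1.07 and Cmpk2, a mitochondrial nucleotide kinase, by 1.05. The 12 hour level of Tnfsf10, 5.96, was among the dimmest 30% of probes. Parp14, also counted as higher, rose by 0.29, but a second probe for it gave 0.12 (adjusted p = 0.283 from limma). By the methods' t-test with Benjamini-Hochberg adjustment 4 of the 10 were higher.

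Of 8 growth factor and cytokine receptors 3 were higher and 3 lower, against 14.4% and 15.0% of all probes. Egfr, the receptor for hepatocyte mitogens of the EGF family, read 12.63, 13.42, 12.90, 12.84 and 12.79 at 12 hours and 11.89, 12.11, 12.18, 12.36 and 12.16 at 36 hours. It fell by 0.78 (standard error 0.13, adjusted p = 4.40e-05 from limma), its partner Erbb3 by 0.52 and the interleukin 17 receptor Il17ra by 0.46. Fgfr3 rose by 1.30 (standard error 0.12, adjusted p = 5.47e-09 from limma) with no overlap, the type I activin and BMP receptor Acvr1 by 0.84 and Met, the receptor for hepatocyte growth factor, by 0.38 (adjusted p = 0.0442 from limma). The call of Met was lost without replicate 2, 3 or 4 of the 12 hour group, without replicate 1, 4 or 5 of the 36 hour group and under quantile normalization.

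Markers of the cell types in liver were read from the named probes only. Of all 21 markers 7 were higher and 4 lower at 36 hours, against 14.4% and 15.0% of all probes. Hepatocyte markers were 0 of 6 higher and 2 of 6 lower (median -0.05), with -0.33 for the transcription factor Prox1, whose call was lost without replicate 1 or 2 of the 12 hour group, and -0.20 for prothrombin F2, whose call was lost without replicate 3 of the 36 hour group. Another 4 hepatocyte markers did not pass, among them Leap2 with 0.40 and Crp with -0.30. Endothelial markers gave 2 of 4 higher, with 0.54 for Clec14a and 0.47 for Tfpi, while Clec1b (0.03) and Esm1 (-0.14) did not pass. All 4 endothelial markers had been below sham at 12 hours. Among stellate and fibroblast markers Eln, elastin, fell by 0.84 and Col14a1 rose by 0.23, a call that was lost without replicate 4 or 5 of the 12 hour group or replicate 2 or 4 of the 36 hour group, while Abi3bp differed by 0.11 and Enpp2 by 0.00. Eln was 2.13 above sham at 12 hours and 1.29 above at 36 hours, whereas Col14a1, Abi3bp and Enpp2 were below sham at both times. The cholangiocyte marker Anxa4 differed by -0.02. Of 6 myeloid and lymphoid markers 4 were higher and 1 lower: Prtn3, a protease of granulocytes and their precursors, rose by 2.23 (standard error 0.55, adjusted p = 2.45e-03 from limma), from 8.71, 7.70, 7.69, 6.65 and 7.52 to 10.64, 9.70, 9.28, 9.06 and 10.77, while Pirb, an inhibitory receptor of myeloid and B cells, fell by 1.06. The mean of the myeloid and lymphoid markers lay between 6.79 and 7.34 at 12 hours and between 7.37 and 7.79 at 36 hours, that of the endothelial markers between 7.40 and 7.76 and between 7.74 and 7.85, that of the stellate markers between 9.38 and 9.67 and between 9.27 and 9.52, and that of the hepatocyte markers between 13.17 and 13.31 and between 13.10 and 13.38. None of the 21 markers lay among the dimmest 30% of probes at either time. The part of a changed cell mixture in the rises and falls above was not tested, and in RNA of whole liver fewer cells of a type and less RNA per cell cannot be told apart.

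Of 224 listed lncRNA probes 56 were higher at 36 hours and 24 lower (median 0.10), against 14.4% and 15.0% of all probes. The rows at hand hold only some of the lncRNAs that the study listed. The counts therefore depend on which clusters these rows cover, and all probes are not a matched comparison for them. The transcript AK013046 (2810408I11Rik), which the study named LncPHx2, read 9.32, 8.15, 8.80, 7.51 and 8.57 at 12 hours and 11.28, 12.07, 11.41, 11.17 and 10.95 at 36 hours. It rose by 2.91 (standard error 0.24, adjusted p = 6.58e-10 from limma), or 7.50-fold, with no overlap, and at 12 hours it had been level with sham at -0.04. The probe AK021390, whose row carries the gene name Hells, rose by 2.89 while the mRNA probe for Hells rose by 4.08, and BC004707, with the gene name Cbx5, rose by 1.40 while the mRNA probe for Cbx5 rose by 1.25. The sources used here do not give the strand of these probes, so the host mRNA and a separate transcript cannot be told apart. AK005849 (1700010N08Rik) rose by 2.01. The largest falls were those of BC027677, with the gene name Nrg4, by 2.28 (standard error 0.26, adjusted p = 2.33e-07 from limma), from 9.34, 10.87, 10.47, 11.26 and 10.57 to 7.63, 8.36, 8.04, 8.37 and 8.73, and of AK021294 by 2.06 (standard error 0.15, adjusted p = 7.78e-11 from limma), from 10.18, 10.99, 10.72, 10.66 and 10.85 to 8.77, 8.58, 8.55, 8.43 and 8.75. Neither was more than 0.44 below sham at 12 hours.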

How the data were processed

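Liver RNA of 25 mice was analysed, 1 mouse per single-colour array, in groups of 5. Intensity was deposited by the authors as a single linear value for each probe on each array, already brought to 1 level (array medians of 97.7 to 99.4 in both groups). The methods name the vsn package, but the values are not on its scale, and the step that scaled them is unknown. Log2 of the deposited intensity was taken with no further normalization. There were no background flags, so low values may understate a fold. Blank probes, 2 in number, were left out.

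Group means for all 25 arrays were estimated together (limma 3.58.1 under R 4.3.3, functions lmFit and eBayes), and the 36 hour mean was set against the 12 hour mean with Benjamini-Hochberg adjustment over 35979 probes and a threshold of 0.05. P-values measure the spread between the mice of a group, and the number of arrays limits the precision. The procedure was tested on simulated data of 35979 probes for this comparison. Of 50 probes per size of change it called 5 at 1.2-fold, 35 at 1.5-fold, 49 at 2-fold and 49 at 4-fold, besides 2 unchanged probes. The simulated probes had independent normal noise with the same spread in every group, and few of them changed. Changed probes were drawn from those above the dimmest 30%. The real data differ in these points, so the counts may not hold for them. Python 3.11.15 with pandas 2.3.3 and matplotlib 3.10.9 served for tables, motif counts and plots.

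Gene names were read from S1 Table, of which the rows at hand cover 1943 probes, and 1385 of these were given a current symbol from a RefSeq gene table. The probe with the highest mean stood for a gene. The members and gene lists were chosen with earlier results of these data known. By the rule for named genes, the text draws on the 12 largest rises and 12 largest falls past the threshold with a mean above the dimmest 30% of probes in the higher group, up to 4 members of each list with the smallest p, members that passed against their list, genes that the paper names, and 4 lncRNAs each way. Further members of the lists, such as Cdt1, Orc5, Rpa2, Msh6, Cdk4, Ppara and Met, were picked after their values were seen. Some genes are counted in their lists but not reported here by name. Other settings tried were the normalization, centring, background, filter on dim probes, variance model, arrays in the fit, the methods' t-test, replicate numbers, single arrays and the promoter window.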

Additional observations from a re-analysis of the deposited data

Results flagged for a closer look

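In 14 of 274 groups of 5 arrays, for 137 named genes at 12 and at 36 hours, the highest or lowest array stood apart from the other 4 by a gap that took up more than 0.71 of the whole range of the group. Chance alone gives this in about 1 in 20 groups, or near the number seen. At 12 hours there were 9 such groups. Mouse 1 was the lowest for Eln, with a gap of 0.963 of the range (11.56 against 12.15 to 12.18), and the highest for Pms2 (0.875, with 7.28 against 6.74 to 6.81), Ipo9 (0.82), Mad2l1 (0.76) and Esco2 (0.725, with 7.22 against 6.05 to 6.37). Mouse 2 was the lowest for Arntl (0.735). Mouse 4 was the lowest for Chac1 (0.798) and Slc37a4 (0.734), and mouse 5 the highest for Hspa4l (0.723). At 36 hours, mouse 4 was the highest for Abi3bp (0.81), Enpp2 (0.747) and Scd2 (0.723, with 10.32 against 9.59 to 9.79), and mouse 5 the lowest for Sult1d1 (0.872) and Mid1ip1 (0.751).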

How the results depend on the processing

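The counts of probes higher and lower, at any size and at 2-fold, stayed within 1.5 times their value under each alternative run. Without single arrays, 4698 to 5557 probes were higher and 4690 to 5872 lower. The labels number the mice 1 to 5 in every group. Deviations of mice with the same number correlated at only -0.07 to 0.08, and only number 5 was closest to its own. Whether mice of the same number shared a step of handling was not tested. With the replicate number as a block, 5175 probes were higher and 5325 lower, and Cdkn1b passed. Member counts of the replication, chromatin, repair, G1 to S and mitosis lists kept to the same limit under all alternatives run.

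Small lists moved by single genes, and the cause was not tested. Clock genes higher were 1, 0 without the dimmest 30% of probes and 2 with the 10 arrays alone or the methods' t-test unadjusted. P450 genes lower were 0, but 1 under quantile normalization, median centring, both filters on dim probes, the trend and robust variance model and the replicate block. By the methods' t-test with Benjamini-Hochberg adjustment, 1 endothelial marker (of 2 called), 4 interferon genes (of 7) and 5 splicing genes (of 8) were higher and 1 lectin or chemokine (of 2) was lower. Fatty acid oxidation genes higher went from 0 to 1, and myeloid and lymphoid markers higher from 4 to 2, without the dimmest 50% of probes. With the 10 arrays alone or the methods' t-test unadjusted, hepatocyte markers higher went from 0 to 1 and secreted proteins higher from 1 to 2. Metabolic enzymes lower went from 2 to 1 with the 10 arrays alone, with both forms of the methods' t-test and with the replicate block. The stellate marker Col14a1 was no longer called, leaving 0 higher, under quantile normalization, with the 10 arrays alone and with both forms of the methods' t-test. Without single arrays the counts ranged as follows. Clock, stellate, hepatocyte marker and fatty acid genes higher, and P450 and endothelial genes lower, lay between 0 and 1. Secreted proteins higher lay between 1 and 2, secreted proteins lower and hepatocyte markers lower between 1 and 3, metabolic enzymes higher between 1 and 4 and lower between 1 and 2, and splicing genes lower between 2 and 5.

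The sign turned only for genes that had not passed: Clec1b gave -0.03 under quantile normalization and -0.02 to 0.09 without single arrays, Enpp2 gave -0.03 under quantile normalization, -0.01 after median centring and -0.12 to 0.18 without single arrays, Abi3bp -0.02 to 0.17 and Anxa4 -0.08 to 0.04. In the 250 bases before the start alone, E2F letters were in 7.97% of all promoters and 29.4% of fork promoters. CHR letters were in 17.4% of all promoters and 32.4% of mitosis promoters. A further search on both strands took the letters CCAAT. Before the start alone it found them in 34.5% of all promoters, 67.6% of mitosis, 63.6% of repair, 64.7% of chromatin, 58.3% of licensing and 41.2% of fork promoters.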
